A study of Sus scrofa with 32 samples.

Results

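Liver RNA of growth-retarded pig fetuses (runts) was compared between gestational day 110, close to term, and gestational day 70. The 8 arrays were chosen by their labels, 4 runts at each day, out of 32 arrays in the series. The series holds 8 groups of 4 arrays, runts and controls at days 37, 50, 70 and 110. All fetuses, controls included, came from artificially inseminated gilts from which 1 uterine horn and ovary had been removed, a surgery that crowds the uterus and yields small littermates. Per the labels the 4 livers of a day came from distinct gilts, and runts and controls were littermate pairs, so the 2 days are different pregnancies. The controls of days 70 and 110 serve here as a reference course.

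The fetal liver makes blood cells through much of gestation and hands that task to the bone marrow before birth. Over the same weeks hepatocytes, its main epithelial cells, take up the synthesis of complement, the handling of drugs and bile acids, and the response to growth hormone. Near term rising cortisol prepares the liver for life outside the uterus. Growth retardation is known for small livers and for altered hormone signals in the newborn.

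Of 13 fixed markers of liver parenchyma 8 were on the array, and all 8 were well above background on all 8 runt arrays. On these arrays 57.23% to 65.23% of spots were well above background and the 75th percentile of the signal ran from 177 to 460 intensity units, lowest on the array of day 110 runt replicate 4. Arrays of one day correlated at 0.9722 to 0.9829 (day 70) and 0.9685 to 0.977 (day 110) across features, against 0.9288 to 0.9591 between the days. All day 70 arrays stood at position 3 of their slides and all day 110 arrays at position 4, so day and position cannot be told apart. The number of arrays, 4 per day, limits the precision of each value.

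A level below is the log2 signal minus the 75th percentile of its array, and a change is the day 110 mean minus the day 70 mean on that log2 scale, with the standard error (SE) of the fit. "Rose", "fell" and "passed" are used where limma gave a Benjamini-Hochberg adjusted p under 0.05 over 28684 features together with a 2-fold or larger change. Of all features 3189 passed in runts, 11.1%, with 1237 higher (4.31%) and 1952 lower (6.81%) at day 110. Among the 1578 features with a gene symbol 255 passed (16.2%), 121 higher (7.67%) and 134 lower (8.49%). The median change over all features was 0.05. The counts depended on the background correction. Normexp here fits a model to the signal left after local background is subtracted and adds an offset, 50 unless stated. With it 1618 features passed, 499 higher and 1119 lower. With a normexp offset of 1, chosen after seeing the data, 22.0% of the features that passed were higher, against 38.8% here. The median change over all features moved to -0.25 with normexp and to -0.32 with that offset. A change of sign under normexp is to be read against that median.

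The largest rise was that of a complement component. C6 (NM_001097449), which complement needs to build its membrane pore, stood at -3.67, -3.27, -4.01 and -2.76 in the 4 runts of day 70 and at 1.66, 3.21, 3.52 and 3.04 in those of day 110. The days did not overlap, which the choice of the largest rises required. The change of 6.29 (SE 0.67, adjusted p = 3.12e-08) is 78.0-fold. C4BPA, the alpha chain of the complement inhibitor C4b-binding protein, was at -4.18, 0.61, 0.65 and -0.08 at day 70 and at 3.68, 4.75, 4.51 and 5.78 at day 110 (change 5.43, SE 1.18, adjusted p = 0.000978). Its day 70 runt replicate 1 lay far below the other 3, and without that array the change was 4.29. DMBT1, a mucosal scavenger receptor, was at -3.23, -7.05, -6.70 and -3.51 at day 70, above background on 2 of 4 arrays, and between -0.11 and 1.61 at day 110 (change 5.63, SE 1.17, adjusted p = 0.000673). Without day 70 runt replicate 1 that change was 6.26 and without replicate 2 it was 4.98. DEFB1, an antimicrobial beta-defensin, rose 16.5-fold (4.05, SE 0.62).

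SULT2A1, a sulfotransferase of steroids and bile acids, rose from levels between 0.37 and 1.91 to levels between 3.68 and 6.13 (change 4.00, SE 0.66). NR1I2, the pregnane X receptor that senses drugs and bile acids, rose 14.8-fold (3.89, SE 0.42). SLC15A1, a carrier of small peptides, rose 14.0-fold (3.80, SE 0.58), and its 4 arrays of day 110 lay within 3.80 to 4.06 while those of day 70 spread from -1.39 to 1.74. The other large rises were in GHR, the growth hormone receptor (3.71), CXCR6, a chemokine receptor of lymphocytes (3.68), and CA3, a carbonic anhydrase (3.61). KLF9, a transcription factor induced by glucocorticoids and thyroid hormone, and FATE1 were not well above background on any runt array of day 70 and rose at least 3.28-fold and at least 2.87-fold. For these dim genes the background correction matters. With the normexp correction KLF9 (-0.08) and FATE1 (-0.17) changed sign and did not pass, both above the median of all features under normexp (-0.25). CXCR6 kept its sign and did not pass, and the other 9 rises still passed.

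The largest fall was that of a globin. HBE1 (NM_214447), the embryonic epsilon globin, was at 2.50, 4.19, 3.87 and 2.54 in the runts of day 70 and at -2.80, -2.20, -2.25 and -2.59 in those of day 110. Its days did not overlap, which the choice of the largest falls required. The fall of 5.74 on the log2 scale (SE 0.34, adjusted p = 4.96e-12) is 53.4-fold. KCNN4, the calcium-gated potassium channel of red cells, was at 3.00, 3.16, 3.37 and 2.81 at day 70 and at -1.40, -0.80, -1.68 and -3.76 at day 110 (31.9-fold lower, SE 0.46). Day 110 runt replicate 4 was the lowest array of its day for 8 of the 12 largest falls, and without it the change of KCNN4 was -4.38. RHCE, a Rhesus blood group antigen, fell 19.3-fold (-4.27, SE 0.43), and EPOR, the erythropoietin receptor, 11.9-fold (-3.57, SE 0.30). TFRC, the transferrin receptor that brings iron to red cell precursors, fell by 3.70 on the log2 scale (SE 0.29). TFRC was above background on 2 of 4 runt arrays at day 110.

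Other large falls lay outside the red cell list. PHACTR3, a regulator of phosphatase 1 and actin, fell by 4.41 on the log2 scale, with day 70 arrays between 3.33 and 3.41. TNNI1, slow skeletal muscle troponin I, fell by 4.20, GKN2, a gastrokine of stomach mucosa, by 4.19, and KCNN3, a related potassium channel, by 3.88. At day 110 GKN2 was above background on 2 of 4 runt arrays and KCNN3 on 1 of 4. SPINK4, a secreted protease inhibitor, fell by 3.79 and UPK2, a uroplakin, at least 9.80-fold, not being well above background on any day 110 runt array. SPEF2, a sperm flagellar protein, fell by 3.79 by the probe that stands for it. That probe was above background on 1 of 4 runt arrays at day 110. A second probe fell by less (-1.74) and another did not pass (-0.57). With normexp SPEF2 did not pass.

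**Figure D1:**
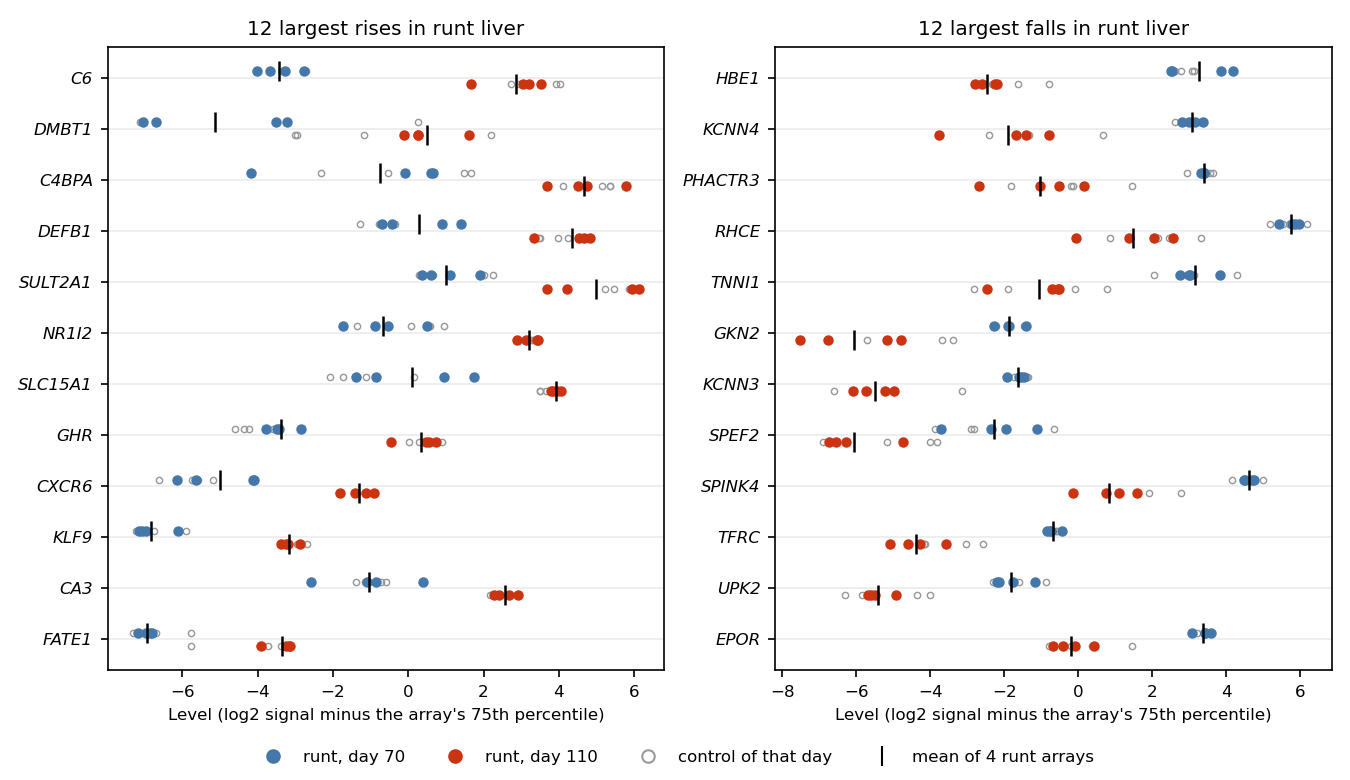
Levels on each array (log2 signal minus the array's 75th percentile) of the 12 largest rises and 12 largest falls in runts, with blue points for day 70, red points for day 110, black bars for the mean of 4 runt arrays and open grey points for the controls of the same day. The blue and red points of a gene do not overlap, which the choice of genes required, and with normexp KLF9 and FATE1 change sign.

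The gene lists below are read against the shares given above, 4.31% of all features higher and 6.81% lower (7.67% and 8.49% of those with a symbol). Some members were above background on at least 3 arrays of only 1 runt day, so a count describes the measured members and supports no direction by itself. Many listed genes were not on the array with a symbol: of 1444 symbols listed by name 519 were on it and 467 were measured. For the red cell list 7 of 56 were measured and for the mitosis list 16 of 81. A list thus stands only for the part of its genes that was measured. Of 7 measured red cell genes 6 fell and 0 rose, and the median change was -3.57 against 0.05 over all features. Beside HBE1, RHCE, TFRC and EPOR, the members that fell included AQP1, the water channel aquaporin 1 (-3.45, SE 0.35). EPO, the hormone erythropoietin, did not pass (-0.55, adjusted p = 0.448). The mean level of the list lay between 2.03 and 2.55 on the day 70 runt arrays and between -1.57 and -0.78 on those of day 110. In whole liver, fewer cells of a type and less RNA per cell cannot be told apart.

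Other blood lineages were covered by 3 lists. Of 13 granulocyte genes 7 fell and 0 rose (median -1.52), against 6.81% of all features lower. PR39, a cathelicidin, was at 6.48, 6.92, 7.09 and 6.57 at day 70 and at 4.69, 3.80, 2.88 and 3.69 at day 110 (adjusted p = 3.33e-05). PGLYRP1, a peptidoglycan receptor of neutrophil granules (-2.79), LTF, lactoferrin (-2.52), NPG4, protegrin 4 (-2.42), and FCN1, ficolin 1 (-2.06), fell as well. MMP9, gelatinase B (-1.52, adjusted p = 0.0408), was near the threshold, and leaving out any of 6 single runt arrays ended its call (adjusted p from 0.0594 to 0.138). Of 7 megakaryocyte and platelet genes 5 fell and 1 rose (median -1.32). PPBP, a platelet chemokine precursor (-2.33), and the integrin chains ITGB3 (-1.91) and ITGA2B (-1.26) were among the falls, with CD9 (-1.61) and SELP (-1.32). TBXAS1, thromboxane synthase, rose (1.42). Of 8 genes of blood stem and progenitor cells 2 fell, KIT, the stem cell factor receptor (-1.56), and CXCR4, a chemokine receptor (-1.08), and 0 rose (median -0.18). Without day 110 runt replicate 3 CXCR4 was at -0.96 and no longer 2-fold. With normexp TBXAS1 (0.28), ITGA2B (-0.96), SELP (-0.99), KIT (-1.21), CXCR4 (-0.85) and MMP9 (-1.25) did not pass.

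Genes of mitosis and DNA replication fell together. Of 16 measured members 13 fell and 0 rose, with a median of -2.66. CCNB1, cyclin B1, fell 10.6-fold (-3.41, SE 0.23, adjusted p = 1.84e-11). CDK1, the kinase it activates, was at 4.13, 4.30, 4.20 and 4.29 at day 70 and at 0.73, 1.28, 0.84 and 0.62 at day 110 (change -3.36, SE 0.23). The spread within each day was small beside the distance between the days. AURKA, a spindle kinase (-3.12), BIRC5, survivin (-3.08), TOP2A, topoisomerase II alpha (-2.89), and CDC20, an activator of the anaphase complex (-2.80), fell as well. The 3 members that did not pass were CCND2, cyclin D2 (0.37, adjusted p = 0.321), CDK4 (-0.60) and CDKN1B (-0.66), which were under 2-fold, the latter pair named after their values were seen. The arrays of day 110 lay below those of day 70 for 14 of the 16, against 12.3% of all features. The red cell, granulocyte and mitosis lists were all lower at day 110, and their part in each other's changes was not tested.

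**Figure D2:**
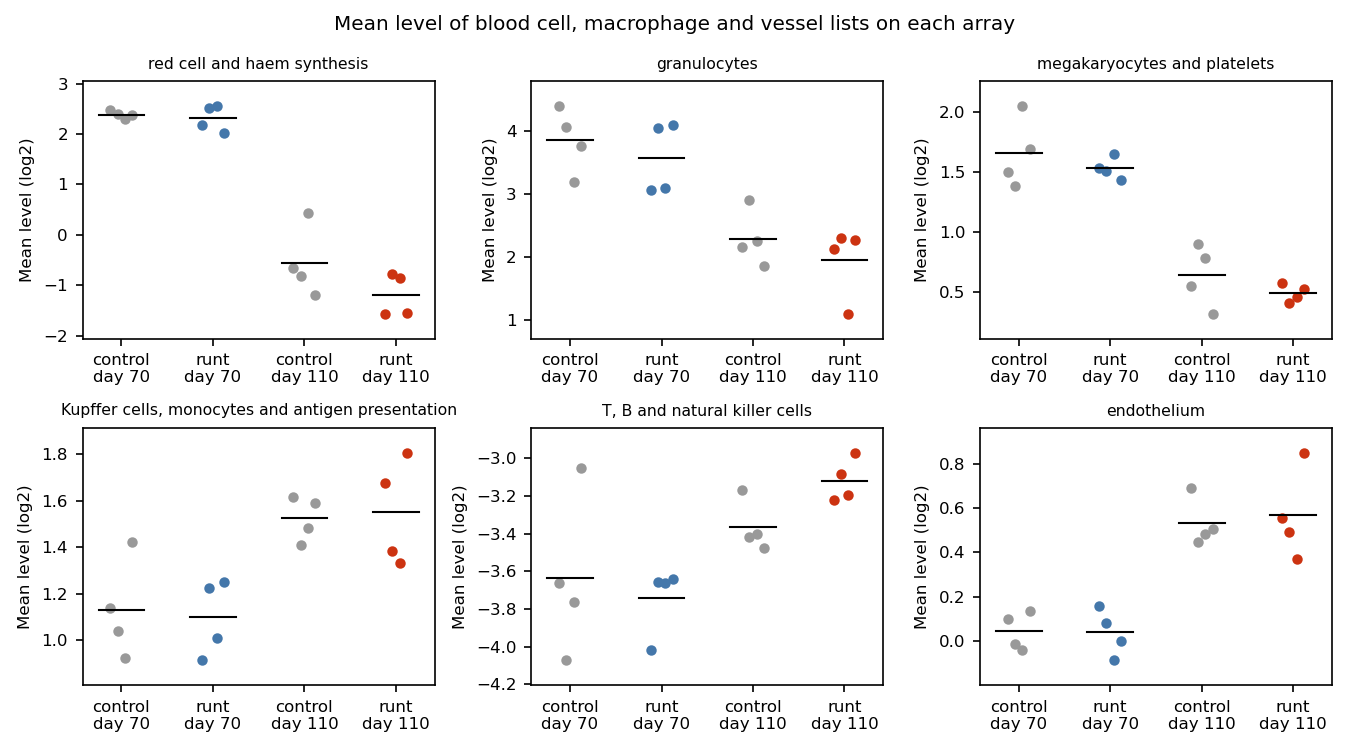
Mean level of 6 marker lists on each array, by group, with blue points for day 70 runts, red points for day 110 runts, grey points for controls and a bar for the mean of 4 arrays (the vertical axis differs between panels). The red cell, granulocyte and megakaryocyte lists were lower on every day 110 runt array than on every day 70 runt array, and the other 3 lists were higher.

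Of 35 macrophage and antigen presentation genes 8 rose, 1 fell and 26 did not pass, against 4.31% higher and 6.81% lower over all features, and the median was 0.38. CD14, the lipopolysaccharide co-receptor, was at 3.16, 3.33, 2.48 and 2.55 at day 70 and at 5.26, 5.58, 5.54 and 5.60 at day 110 (change 2.61, SE 0.23, adjusted p = 8.37e-10). FCGR2B, an antibody receptor of Kupffer cells and liver sinusoids, rose by 2.89 (SE 0.38). CCL2, a monocyte chemokine (1.62), and the class II chains SLA-DRA (1.58), SLA-DQB1 (1.49) and SLA-DQA1 (1.35) rose as well. The member that fell was CD86, a costimulatory ligand (-1.31), named after its value was seen. With normexp CCL2 (0.73) and CD86 (-0.97) did not pass.

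Of 24 endothelial genes 5 rose and 2 fell (median 0.70). GATA4 (1.55), a factor of liver sinusoids, and the caveolins CAV1 (1.37) and CAV2 (1.18) rose, and AQP1 and SELP, which are also in blood cell lists, fell. With normexp GATA4 was at 0.0021 and did not pass. Of 18 T, B and natural killer cell genes 3 rose and 0 fell, and 5 of the 18 were above background on at least 3 arrays of only 1 of the 2 runt days. CD3G, a chain of the T cell receptor complex (2.46), CD2 (2.21, at least 1.79-fold) and CCR7 (1.70) were dim, and with normexp CD2 and CCR7 changed sign and CD3G did not pass. The median of that list was 0.40, and it turned negative under normexp (lowest value over all settings -0.64). Of 24 stromal and matrix genes 4 rose and 0 fell: NTN1, netrin 1 (2.03), the collagen chains COL8A1 (1.91) and COL5A3 (1.67), and TGFB3 (1.16). COL8A1 lost its call without day 70 runt replicate 2 (1.46, adjusted p = 0.0612) and COL5A3 turned to -0.27 with normexp, under which TGFB3 (0.81) did not pass.

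Complement proteins of the blood are made largely by hepatocytes. Of 24 complement components and regulators 9 rose and 2 fell (median 0.53). After C6 and C4BPA came C7, the next component of the attack complex (2.70, above background on 1 of 4 day 70 arrays), C4A of the classical pathway (2.61, SE 0.40) and C8B (2.48, SE 0.41). With normexp C7 was at 0.11 and did not pass. CD55, which protects cells from complement and is carried by blood cells, fell (-3.08, SE 0.45). Of 13 acute phase genes 5 rose and 0 fell (median 0.77), among them APCS, serum amyloid P (3.30, SE 0.52), SAA3, serum amyloid A3 (3.11, SE 0.51), and CD14. IL6 (2.24, at least 2.65-fold) and PIGR (1.80, above background on 1 of 4 arrays at day 110) were dim, and both changed sign with normexp. Coagulation factors F7 (1.77), F10 (1.26) and F9 (1.02) rose among 16 measured, F9 by little more than 2-fold, and with normexp F7 (0.68) did not pass.

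Few plasma carriers passed. Of 22 plasma carriers and protease inhibitors 1 rose, APCS, and 0 fell (median -0.07). ALB, serum albumin, was at 8.03, 7.44, 6.12 and 7.54 at day 70 and at 7.24, 7.69, 6.95 and 6.51 at day 110 (change -0.19, SE 0.59, adjusted p = 0.861). AFP, its fetal relative, was between 9.39 and 10.19 at day 70 and between 8.79 and 9.55 at day 110 (change -0.56, SE 0.30, adjusted p = 0.187). Both genes overlapped between the days. APOA4, an apolipoprotein, did not pass (1.42, SE 0.76, adjusted p = 0.185).

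Enzymes of drug and steroid handling split in both directions. Of 24 cytochromes P450 and phase II enzymes 4 rose and 4 fell (median -0.10). GSTA1, a glutathione transferase, was at 0.97, 0.01, -0.79 and 1.92 at day 70 and at -0.25, 5.07, 5.36 and 5.62 at day 110 (change 3.42, SE 0.94, adjusted p = 0.00815). Replicate 1 of day 110 lay among the day 70 runts. Without it the change was 4.82, and within slide 4, which holds that array, it was -1.22. CYP4A21, a fatty acid hydroxylase, rose (2.35), and CYP1A1, induced through the aryl hydrocarbon receptor (-2.49), SULT1A3 (-1.99) and CYP2C33 (-1.15) fell. With normexp CYP2C33 (-0.76) did not pass. CYP1A1 lost its call without day 70 runt replicate 2 (-1.95, adjusted p = 0.114). CYP2E1, the ethanol-inducible P450, did not pass (2.82, SE 1.89, adjusted p = 0.305), with day 70 levels from -0.70 to 6.19. SULT1E1, which sulfates oestrogen, did not pass either (1.31, adjusted p = 0.196).

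Of 19 liver transcription factors and nuclear receptors 2 rose, NR1I2 and GATA4, the latter not with normexp, and 0 fell (median 0.48). Of 10 genes of cholesterol and bile acid metabolism 1 rose and 0 fell, near the 7.67% of features with a symbol. This was CYP7A1, which sets the rate of bile acid production, not well above background at day 70 and so on 3 of 4 arrays at day 110 (at least 1.92-fold), and with normexp it turned to -0.32.

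Of 16 genes of the growth hormone and insulin-like growth factor axis 4 rose, 2 fell and 10 did not pass (median 0.30). GHR, the receptor, was at -2.84, -3.77, -3.49 and -3.42 at day 70 and at -0.44, 0.55, 0.74 and 0.46 at day 110 (change 3.71, SE 0.29, adjusted p = 1.7e-10). SOCS2, the feedback inhibitor induced by growth hormone, was at -2.46, -3.01, -2.62 and -2.37 at day 70 and at 0.32, 0.01, 0.89 and 0.73 at day 110 (8.59-fold higher, SE 0.23). For neither gene did the days overlap, which for GHR the choice of the largest rises required. Of all features 12.6% were higher at day 110 without overlap. IGFALS, which binds circulating growth factor complexes (1.58), and PRLR, the prolactin receptor (1.21), rose, and STAT5A, a signal carrier of both receptors (-1.36), and PLAGL1, an imprinted zinc finger factor (-2.87), fell. With normexp IGFALS (-0.01) and PRLR (-0.47) changed sign and STAT5A (-0.92) did not pass, and without day 70 runt replicate 3 PRLR was at 0.99.

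IGF1, the growth factor that growth hormone induces, was at -2.75, -2.72, -3.18 and -2.94 at day 70 and at -3.04, -2.65, -3.04 and -2.55 at day 110 (change 0.08, SE 0.24, adjusted p = 0.853). IGF2, its fetal counterpart, was at -0.22 (SE 0.20), IGFBP2, a binding protein, at 0.93 (SE 0.46, adjusted p = 0.143) and IGFBP3 at 0.24 (SE 0.22). The sign of IGF1, IGF2 and IGFBP3 depended on the setting. The 4 IGFBP2 arrays of day 110 all lay above those of day 70, which 12.6% of all features did. Of 15 genes tied to cortisol action before birth 3 rose and 0 fell, against 4.31% of all features higher: KLF9, DIO1, the deiodinase that activates thyroid hormone (3.55, SE 0.54), and HSD11B1, which regenerates cortisol (1.29, SE 0.23). The median of the list was 0.57, and with normexp it turned to -0.08, against -0.25 over all features under normexp. HSD11B1 was at 4.67, 4.39, 4.41 and 4.30 at day 70 and at 5.59, 5.57, 5.65 and 6.11 at day 110.

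**Figure D3:**
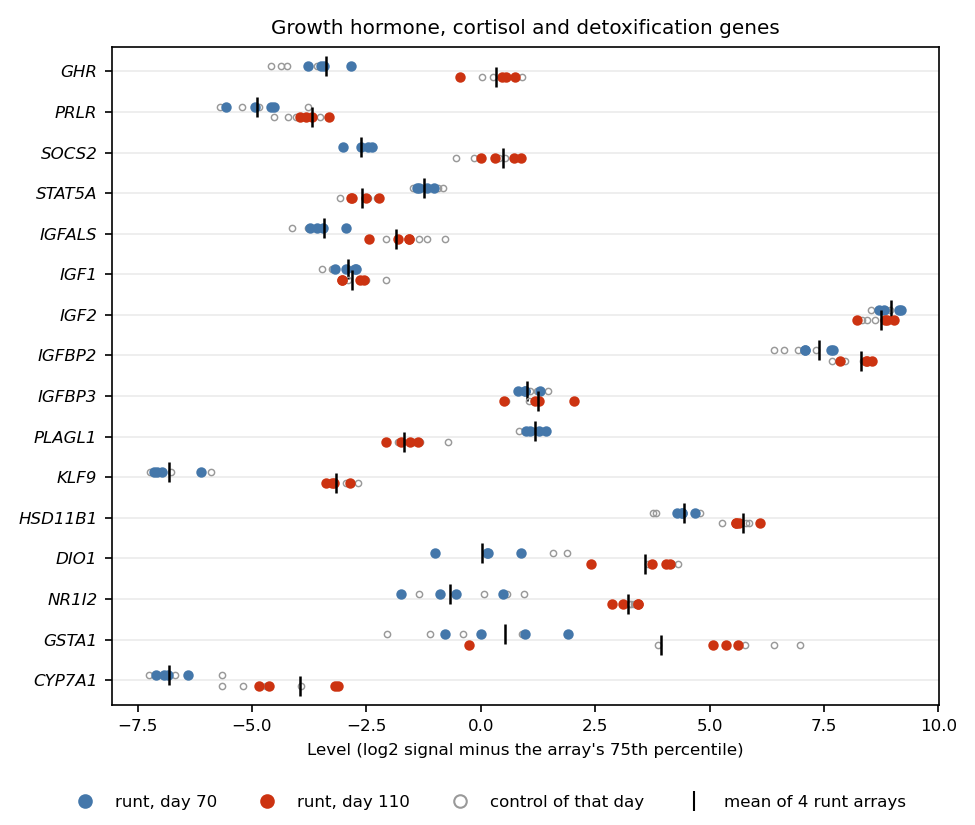
Levels on each array of 16 genes of the growth hormone axis, cortisol action and detoxification, marked as in the plot of leading genes. GHR, SOCS2, DIO1 and NR1I2 were higher on all 4 day 110 runt arrays, IGF1 and IGF2 overlapped, GSTA1 had 1 day 110 runt at -0.25, and with normexp IGFALS, PRLR, KLF9 and CYP7A1 change sign.

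Of 17 fetal and imprinted genes 5 fell and 1 rose (median -0.24). Beside HBE1 and PLAGL1, CITED1, a transcriptional coregulator, fell at least 6.52-fold (-3.32), being above background on no day 110 array. TLDC2 (-1.84, at least 1.12-fold) and DIRAS3 (-1.10) fell, and EPCAM, an epithelial adhesion molecule (1.08), rose. DIRAS3 lost the 2-fold without day 70 runt replicate 2 (-0.90) or day 110 runt replicate 3 (-0.89), and EPCAM without day 70 runt replicate 3 (0.99), day 110 replicate 2 (0.95) or replicate 3 (0.97). The imprinted growth regulator DLK1 did not pass by its brighter probe (-0.24, adjusted p = 0.648), while its other probe fell (-3.78, adjusted p = 3.33e-06). With normexp TLDC2 (-0.86) and DIRAS3 (-0.91) did not pass.

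Genes of energy metabolism passed in both directions. Of 18 genes of fatty acid oxidation 1 rose and 4 fell (median -0.22), against 4.31% of all features higher and 6.81% lower. CPT1A, which admits fatty acids to mitochondria, rose (1.65, SE 0.24). OXCT1, which lets tissues burn ketones, was at 2.54, 1.41, 1.73 and 2.13 at day 70 and at 0.04, -0.09, -0.18 and 0.36 at day 110 (change -1.92, SE 0.24). UCP2, an uncoupling protein (-1.38), ACADL, a fatty acid dehydrogenase (-1.31), and FABP1, the liver fatty acid-binding protein (-1.16), fell. FABP1 lost its call without day 70 runt replicate 1 (-0.99, adjusted p = 0.0571) or day 110 runt replicate 3 (-0.97, adjusted p = 0.0628). PDK4, which slows glucose oxidation, rose among 10 glycolysis genes (2.87, SE 0.47), with another probe that did not pass (0.80). PC, pyruvate carboxylase, rose among 8 genes of gluconeogenesis (1.38, SE 0.17). GNMT, which uses methyl groups of methionine, rose (1.45) and ARG1, the urea cycle arginase, fell (-1.52, SE 0.16) among 16 genes of amino acid breakdown. With normexp ACADL (-0.99), FABP1 (-0.93) and GNMT (0.66) did not pass.

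Of 25 genes of fatty acid and triglyceride synthesis 3 rose and 3 fell (median 0.04). FABP4, the fatty acid-binding protein of fat cells (3.38, at least 3.68-fold), LEPR, the leptin receptor (2.55, at least 1.25-fold), and ACACA, acetyl-CoA carboxylase (1.22), rose, and all 3 turned negative with normexp. The other 3 probes of ACACA did not pass (0.57 to 0.94). LIPE, hormone-sensitive lipase (-1.58), and CD36, a fatty acid carrier (-1.40), fell with FABP1. CD36 lost its call without any of 7 single runt arrays (adjusted p from 0.055 to 0.13), and another probe of it did not pass. With normexp CD36 (-0.95) and COX8H (-0.99) did not pass. Of 18 respiratory chain genes 1 fell, COX8H (-2.98, at least 2.59-fold), and 0 rose (median 0.04). Of 35 genes of hypoxia and other stress 1 rose, JUN (1.25), which without day 110 runt replicate 4 was at 0.96, and 0 fell (median 0.07). Of 27 cytosolic ribosomal proteins 0 passed in either direction in limma (median -0.20), and the smallest p was that of RPL35 (-1.20, unadjusted p = 0.0377, adjusted p = 0.116).

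In the lists of iron handling, neighbouring organs and solute carriers 0 to 4 members of each list passed in a direction, beside 7.67% higher and 8.49% lower among features with a symbol. Of 14 iron genes 2 rose and 3 fell: TFRC, the metal reductase STEAP1 (-3.49) and LTF fell, and STEAP4 (1.86) and the haemoglobin scavenger receptor CD163 (1.17) rose. STEAP4 was at 0.18 with normexp and did not pass. Among 17 kidney, gut and adrenal genes SLC15A1, CCK (2.67) and SLC7A9 (1.11) rose and PDZK1IP1 (-2.95), SLC34A1 (-2.53) and ENPEP (-1.24) fell. Without day 110 runt replicate 2 CCK was at 1.95 (adjusted p = 0.0719), without day 70 runt replicate 1 at 2.32 (adjusted p = 0.0504), within slides 1 to 3 at -0.50, and with normexp at 1.09 and not passing. ENPEP lost its call without any of 4 single runt arrays (adjusted p from 0.0524 to 0.139), and SLC7A9 was at 0.92 without day 70 runt replicate 2 and at 0.95 with normexp. Of 18 muscle genes TNNI1 and MYH7, slow myosin (-2.30), fell and CKM, muscle creatine kinase (2.25), and TNNT1 (1.07) rose. TNNT1 was at 0.86 without day 70 runt replicate 3 and at 0.90 without day 110 replicate 2.

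Of 6 pancreas genes PLA2G1B fell (-2.16) and 0 rose. Of 9 bile duct genes EPCAM and CFTR (1.46, at least 1.65-fold) rose and AQP1 fell. CFTR turned to -0.52 with normexp, and lost its call without day 70 runt replicate 2 (adjusted p = 0.0541) or day 110 runt replicate 3 (adjusted p = 0.0521). Of 41 solute carriers 4 rose and 2 fell (median 0.08), near those shares. SLC26A6, an anion exchanger, fell (-2.55), and SLC7A2 (1.22) and SLC17A1 (1.47) rose. SLC7A2 lost its call without any of 4 single runt arrays (adjusted p from 0.05 to 0.15), and SLC17A1 without any of 3 (adjusted p from 0.0508 to 0.0684) and turned to -0.61 with normexp.

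**Figure D4:**
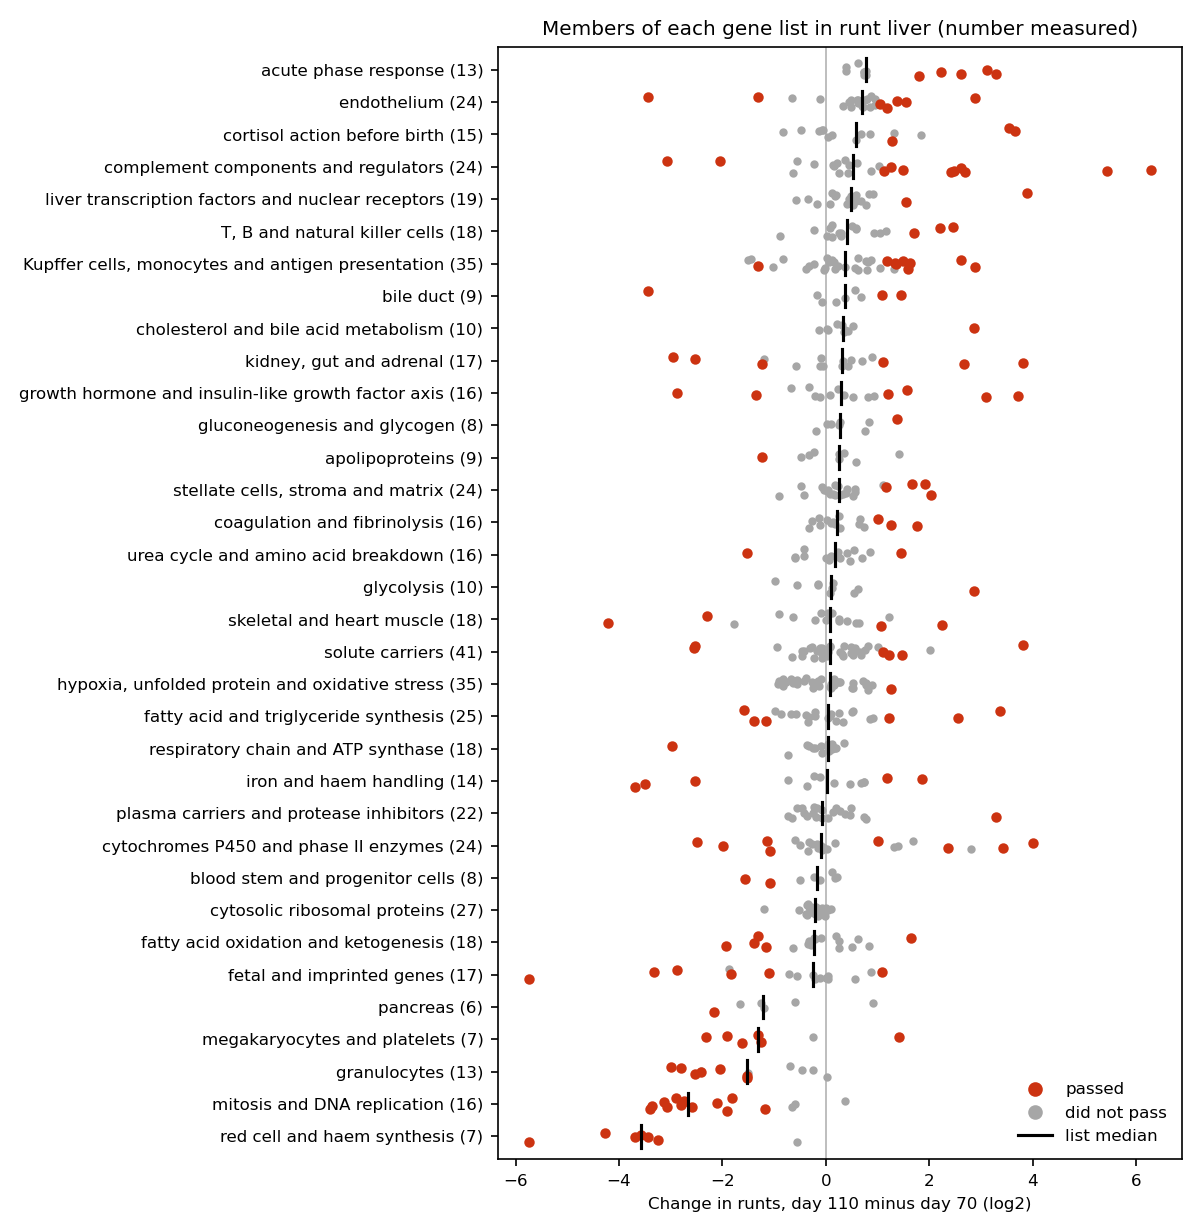
Change in runts (log2, day 110 minus day 70) of each measured member of 34 gene lists, ordered by list median (black bar), with red points for members that passed and grey points for the rest. The red cell list (median -3.57) and the mitosis list (median -2.66) lie at the lower end. With normexp 10 list medians changed sign, while the median over all features was -0.25.

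The control course addressed whether runts take the same path from day 70 to day 110. In controls 3561 features passed (12.4%), 1521 higher (5.3%) and 2040 lower (7.11%), among them 133 (8.43%) and 146 (9.25%) with a symbol. Together 2498 features passed in both in the same direction, 78.33% of the runt set and 70.15% of the control set, with 0 in opposite directions. Of the 255 genes with a symbol that passed in runts, 215 also passed in controls and 254 had the same sign there. All 24 leading genes passed in controls in the same direction. The 12 falls were larger in runts than in controls, although they were chosen by their size in runts, and 4 of the 12 rises were. Among these falls GKN2, KCNN3, SPEF2, TFRC and UPK2 were not above background on some or all day 110 runt arrays, so their sizes are uncertain. Across the 1578 genes the changes of the 2 courses correlated at 0.9215, and genes are not independent replicates.

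For the difference between the courses 0 features passed in limma (adjusted p under 0.05). At an unadjusted p under 0.05 there were 496 features, 1.73%, and 42 with a symbol, 2.66%. Both shares are below what a threshold of 0.05 gives by chance on average. The smallest p among named genes was that of DIRAS2, a small GTPase of the Ras family. It was at -5.12, -5.97, -6.76 and -4.47 in runts of day 70, not well above background, and at -2.21, -3.11, -3.43 and -1.55 at day 110. Controls changed by -0.04 (difference 3.04, unadjusted p = 0.00161, adjusted p = 1.00), but only 1 control array of each day was above background. With normexp the runt change of DIRAS2 turned to -0.25. NR4A3, an immediate early nuclear receptor, changed by 0.39 in runts and 2.56 in controls (unadjusted p = 0.00225). It was dim, above background on 0 of 4 control arrays and 3 of 4 runt arrays of day 70. Its control rise is therefore given as at least 2.82-fold, and with normexp its runt change turned to -0.49. GHR (3.71 against 4.63, unadjusted p = 0.0334), HBE1 (-5.74 against -4.64, unadjusted p = 0.0318), TFRC (-3.70 against -2.81, unadjusted p = 0.0419), CCND2 (0.37 against -0.61, unadjusted p = 0.0116) and GSTA1 (3.42 against 6.43, unadjusted p = 0.0323) also did not pass after adjustment. A p that misses the threshold does not show that the courses are alike.

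**Figure D5:**
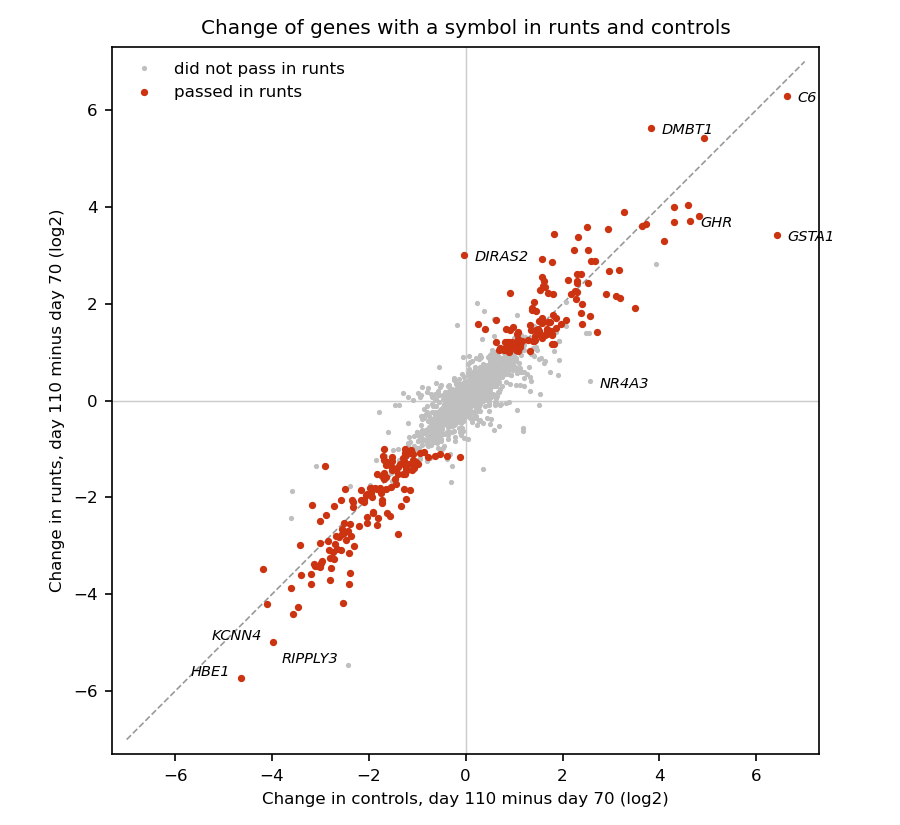
Change of each of 1578 genes with a symbol in controls (horizontal) and runts (vertical), log2, day 110 minus day 70, with red points for genes that passed in runts, grey points for the rest and a dashed line of equal change. Most red points lie near the line, DIRAS2 and GSTA1 lie away from it, and RIPPLY3 (-5.46 in runts, SE 2.94), named after its values were seen, did not pass.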

How the data were processed

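Liver RNA was labelled with Cy3 and hybridised to 32 one-colour Agilent arrays. Per the file headers each processed signal is a background-subtracted intensity from Feature Extraction 10.7.3.1. A second set of values, log2 per the deposited table's range (maximum 18.47 in each column), was an alternative; the submitters' processing notes name Partek, and its normalization is not given in the sources used here. Control and outlier spots were left out, and log2 signals were taken minus each array's 75th percentile. Of 43603 probes, 2646 matched 1 of 1882 symbols by RefSeq accession and 40957 have no symbol here. A probe was tested when well above background on at least 3 of 4 arrays of a group, and the brightest probe stood for a gene. One mean per group was fitted over all 32 arrays with limma 3.58.1 in R 4.3.3 (two-sided, 24 residual degrees of freedom). "At least" folds use the background limit. The code was tested on simulated data.

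Genes and lists were chosen with earlier results of these data known. Named are the 12 largest rises and falls that passed with no overlap between days and all 4 arrays of the higher day above background, the 3 smallest p for the difference of courses, up to 6 members that passed per list (or the smallest p where none did), and a fixed panel, of which IGFBP1 and PCK1 had no value. Some genes that this rule names are not reported here. Alternatives were normexp (offset 50, on median signals), quantile and median scaling, the deposited table, other filters, fewer arrays, slide, slide set and replicate blocks, the mean of probes, no fold threshold and leaving out each array. A normexp offset of 1 and a pairing of runt and control within a day were chosen after seeing the data. No sequences or genome positions were used here.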

Additional observations from a re-analysis of the deposited data

Results flagged for a closer look

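Among 306 pairs of a reported gene and a runt day, 15 held 1 array far from the other 3 by Dixon's ratio, about the 1 in 20 that chance flags. At day 70, C4BPA was at -4.18 in replicate 1 (others -0.08 to 0.65), CYP4A21 at 2.57 in replicate 1 (others 1.45 to 1.51) and PHACTR3 at 3.33 in replicate 1 (others 3.41). CD86 was at 0.27 in replicate 2 (others -0.13 to -0.08), KLF9 at -6.10 in replicate 3 (others -7.14 to -6.97) and SLC7A2 at 0.60 in replicate 3 (others 1.66 to 1.75). PPBP was at 1.12 in replicate 4 (others 1.62 to 1.72). At day 110, GSTA1 was at -0.25 in replicate 1 (others 5.07 to 5.62), PDZK1IP1 at -0.52 in replicate 1 (others -2.76 to -2.51) and ARG1 at 4.95 in replicate 1 (others 4.70 to 4.74). TOP2A was at 2.16 in replicate 2 (others 1.79 to 1.85), SLC17A1 at -5.77 in replicate 2 (others -4.76 to -4.62) and FATE1 at -3.91 in replicate 3 (others -3.25 to -3.13). TNNI1 was at -2.47 in replicate 4 (others -0.70 to -0.51) and HSD11B1 at 6.11 in replicate 4 (others 5.57 to 5.65).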

How the results depend on the processing

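The count of features that passed in runts was within 1.5 times 3189 under quantile and median scaling, the deposited table, no filter on dim probes, the 16-array and 8-array fits, the slide and slide set blocks, slides 4 to 9 alone and the mean of probes (2624 to 3338). It was 1618 with normexp (499 higher, 1119 lower, 169 with a symbol, 1543 in controls) and 1806 for probes above background on all 32 arrays (554, 1252, 168 and 1980). Within slides 1 to 3, which hold 1 day 70 runt assumed to vary like the other groups, it was 1212 (284, 928, 104 and 1878). Without the fold threshold it was 7025, and with a normexp offset of 1 there were 583 higher features and 1974 in controls. Leaving out 1 array gave 2867 to 3257 features in runts (1037 to 1282 higher, 1800 to 1987 lower, 239 to 266 with a symbol), 3190 to 3710 in controls and 0 to 1 for the difference of courses, the 1 without day 110 control replicate 3. With the replicate block 3323 features passed in runts and 0 for the difference (868 at an unadjusted p under 0.05). The numbers are not stated to pair animals. Deviations of same-numbered runts of the 2 days correlated at 0.201 and 0.381 for replicates 1 and 2, which share a slide. For replicates 3 and 4, on different slides, they correlated at -0.0515 and 0.121. Pairing runt and control within a day also gave 0 for the difference (970 at an unadjusted p under 0.05).

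Of 141 reported genes that passed, 45 passed in every setting that tested them. With the same sign, 78 did not pass within slides 1 to 3, 28 within slides 4 to 9 (both with fewer arrays) and 31 with normexp. With normexp the sign changed for ACACA (-0.077), ALB (0.14), CCR7 (-0.21), CD2 (-0.42), CFTR (-0.52), COL5A3 (-0.27), CYP7A1 (-0.32), DIRAS2 (-0.25), FABP4 (-0.14), FATE1 (-0.17), IGF1 (-0.51), IGF2 (0.15), IGFALS (-0.013), IL6 (-0.19), KLF9 (-0.076), LEPR (-0.41), NR4A3 (-0.49), PIGR (-0.56), PRLR (-0.47), SLC17A1 (-0.61) and SULT1E1 (-0.14), and the cause was not tested. Of these 21 genes 16 had passed, and their highest mean level at day 110 was -1.85. With an offset of 1 it changed for ACACA (-0.034), ALB (0.18), CCR7 (-0.27), CD2 (-0.52), CFTR (-0.88), COL5A3 (-0.31), CYP7A1 (-0.29), DIRAS2 (-0.30), IGF1 (-0.83), IGF2 (0.19), IL6 (-0.019), LEPR (-0.40), NR4A3 (-0.78), PIGR (-0.82), PRLR (-0.73), SLC17A1 (-1.01) and SULT1E1 (-0.092). It also changed for IGF2 with quantile scaling (0.036) and the deposited table (0.035), for CCND2 (-0.087) and IGF2 (0.19) with the mean of probes, for CCK (-0.50), IGFBP3 (-0.022) and NR4A3 (-0.065) within slides 1 to 3 and for ALB (0.27) within slides 4 to 9. Leaving out 1 array moved ALB from -0.57 to 0.064, IGF1 from -0.016 to 0.15 and IGFBP3 from -0.018 to 0.49. Signal near background limits the dim genes. The median change over all features was -0.25 with normexp, and the sign changes above are to be read against it.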
